A study of Homo sapiens with 6 samples.

Results

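The miR-29 family is a group of 4 human microRNA hairpins whose 3p arms are miR-29a-3p, miR-29b-3p and miR-29c-3p. Its probes were taken by name, as every human probe whose name starts with miR-29a, miR-29b or miR-29c, and there were 7 such probes among 2019. Of these, 3 detect the 3p arms and 4 detect the 5p arms miR-29a-5p, miR-29b-1-5p, miR-29b-2-5p and miR-29c-5p. RNA came from HuH7, a long-established line of human liver cancer cells, and was hybridised to 1-colour arrays with 1 spot per probe. The cisplatin group (3 arrays) had 1 µg/ml cisplatin, a platinum drug that crosslinks DNA, for 24 h, and the control group (3 arrays) had none. Both groups were HuH7 in MEM with fetal bovine serum. Samples are numbered 1 to 3 within a group, and no label calls them separate cultures, so the spread behind each p-value may be technical.

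A microRNA guides the Argonaute protein to messenger RNAs that pair with its seed, the bases from the second to the eighth, and lowers their translation and stability. The miR-29 family is best known for holding down extracellular matrix genes such as collagens, elastin and fibrillin, and it is studied in liver as an anti-fibrotic microRNA of stellate cells. It also targets the DNA methyltransferases DNMT3A and DNMT3B and the anti-apoptotic protein MCL1, and it is often described as lowered in liver cancer.

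The mature sequences show what a probe has to tell apart. All 7 names matched a RefSeq entry (GRCh38.p14), and the letters below run 5′ to 3′ with the seed (bases 2 to 8) in capitals. The 3p arms, which carry the shared seed AGCACCA, read:
miR-29a-3p: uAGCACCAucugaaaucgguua
miR-29b-3p: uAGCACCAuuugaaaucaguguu
miR-29c-3p: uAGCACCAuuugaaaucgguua
The 5p arms, shown because their seeds differ from that of the 3p arms, read:
miR-29a-5p: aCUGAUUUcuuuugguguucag
miR-29b-1-5p: gCUGGUUUcauauggugguuuaga
miR-29b-2-5p: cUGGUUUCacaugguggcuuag
miR-29c-5p: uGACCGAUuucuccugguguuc

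Counted from 1 at the 5′ end, miR-29c-3p differed from miR-29a-3p by 1 substitution over 22 bases, C10U. miR-29b-3p differed from miR-29a-3p at 4 of the 22 positions both have, by C10U, G18A, U21G and A22U, and it is 1 base longer. With 21 of 22 bases the same in miR-29a-3p and miR-29c-3p, their values may share hybridisation. The probe letters were not used here, and how well each probe separates the arms was not tested.

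The family comes from loci on 2 chromosomes. MIR29A (hairpin chr7:130876747-130876810) and MIR29B1 (chr7:130877459-130877539) lie 648 bases apart on the minus strand, and RefSeq lists no other gene over them. MIR29B2 (chr1:207802443-207802523) and MIR29C (chr1:207801852-207801939) lie 503 bases apart on the minus strand, within the long noncoding RNA gene MIR29B2CHG. The mature miR-29b-3p is the same from MIR29B1 (chr7:130877467-130877489) and MIR29B2 (chr1:207802450-207802472), so its probe sums both loci, while the probes for miR-29a-3p (chr7:130876748-130876769) and miR-29c-3p (chr1:207801865-207801886) each stand for 1.

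Of 2370 mature microRNA names in the RefSeq table, 3 had the seed AGCACCA, and all 3 are family members. Another 5 held the first 6 letters of this seed, AGCACC, at bases 2 to 7 or 3 to 8, and 3 of these had a probe. Only miR-3663-3p (ugAGCACCacacaggccgggcgc, chr10:117167695-117167717, minus strand, with the shared 6 letters in capitals) was above the blank-spot limit, on all 6 arrays. It had a log2 difference of -0.066 (SE 0.13, limma adjusted p = 0.867). miR-5682 and miR-3065-3p were above the limit on 0 of 6 arrays.

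The arrays showed 329 to 713 detected human probes after cisplatin and 500 to 738 in control, where a detected probe has a raw foreground over a limit set by the array's 925 blank spots, their mean with 2 SD added. This limit was 208.6, 246.5 and 227.4 scanner units for cisplatin and 220.1, 239.8 and 228.1 for control replicates 1, 2 and 3. The mean of the blank spots and the median local background were lower in the cisplatin array in 3 of 3 same-numbered pairs. The 4 hepatocyte markers (both arms of miR-122, miR-192-5p and miR-194-5p) were above the limit on all 6 arrays, with a summed signal over background of 7213 to 9189 units after cisplatin and 7128 to 8422 in control. After normalization their log2 difference was negative for 3 and positive for 1 (median -0.13), and 0 had a limma adjusted p under 0.05. Of 6 markers of fibroblasts, stellate cells and smooth muscle, 2 to 3 were above the limit on cisplatin arrays and 3 on control arrays. Their summed signal was 450 to 561 and 425 to 491 units. miR-145-5p and miR-143-3p were above the limit on all 6 arrays, and miR-214-3p on 1 of 3 cisplatin and 3 of 3 control arrays. Both 5p arms of miR-199 were above it on 1 or fewer of 6 arrays, and the shared 3p probe of miR-199a and miR-199b on 0. Of 6 blood markers, 0 to 4 were above it on cisplatin arrays and 2 to 3 on control arrays (375 to 534 and 448 to 462), of 4 muscle markers 0 and 0 to 3 (265 to 340 and 229 to 332), and of 2 endothelial markers 1 and 1 to 2 (215 to 263 and 187 to 273). Blank spots also lie above the local background, so each of these sums holds signal that is not marker RNA. Their mean was 183.9 to 210.6 units on cisplatin arrays, where the median local background was 141 to 176. In control these were 196.0 to 213.1 and 154 to 185. No blood or muscle marker was detected on all arrays of a group, so their sums are not read as RNA of those cells. Whether RNA of other cell types adds to the family's values was not tested.

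All 3 of the 3p probes stood higher in value after cisplatin, and none passed the test. Among the 324 probes tested 47.8% stood higher and 0.309% passed. miR-29c-3p was tested only because all cisplatin arrays detected it, which favoured a positive value. Nothing is therefore read from this count or from the size of its difference. miR-29a-3p had the largest of the 3 differences in the main analysis, but miR-29c-3p did with the authors' values (0.76 against 0.59), without control replicate 1 (0.29 against 0.14) and between the replicate 2 arrays (0.36 against 0.11). The 5p arms lay at the level of the blank spots in both groups. In this bulk RNA fewer cells and less RNA per cell cannot be told apart.

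miR-29a-3p (hsa-miR-29a-3p, MIMAT0000086), the product of MIR29A, had a raw foreground of 873, 1068 and 1083 units in cisplatin replicates 1, 2 and 3, against 546, 857 and 838 in control replicates 1, 2 and 3. The lowest cisplatin array lay just above the highest control array, and control replicate 1 stood well below the other two controls. The pixel SD within these spots was 184.6, 172.7 and 170.3 units after cisplatin and 121.6, 197.8 and 173.6 in control, which describes the spot and not the error between arrays. Within same-numbered pairs the cisplatin array was 1.60, 1.25 and 1.29 times as bright, and 1.85, 1.32 and 1.35 times after subtraction of the local background.

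On the normalized log2 scale (normexp background correction with an offset of 50 units, then quantile normalization over the human probes) miR-29a-3p stood at 9.60, 9.70 and 9.70 after cisplatin, against 9.02, 9.60 and 9.49 in control. On this scale the groups touched, since cisplatin replicate 1 and control replicate 2 had the same value. The means were 9.67 ± 0.062 and 9.37 ± 0.31 (SD, n = 3 each), a log2 difference of 0.30 (SE 0.16, 95% interval -0.097 to 0.70, limma adjusted p = 0.455). As a fold this is 1.23, with an interval from 0.935 to 1.62. Tested were the 324 probes that every array of the cisplatin group, or every array of the control group, detected. Among these it ranked 17 by signed difference and 80 by p.

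miR-29b-3p (hsa-miR-29b-3p, MIMAT0000100), the product of both loci, had a raw foreground of 569, 690 and 583 units after cisplatin, against 434, 623 and 551 in control. The groups overlapped, and control replicate 1 was again the lowest array. Its same-numbered ratios were 1.31, 1.11 and 1.06, or 1.53, 1.16 and 1.10 after subtraction of the local background. Normalized values were 8.97, 8.97 and 8.71 after cisplatin and 8.52, 8.96 and 8.80 in control. The means were 8.89 ± 0.15 and 8.76 ± 0.22 (SD, n = 3 each), and the log2 difference was 0.13 (SE 0.14, 95% interval -0.22 to 0.48, limma adjusted p = 0.76), with rank 70 by signed difference. The difference was smaller than its standard error, and the third pair ran the other way on the normalized scale (-0.082).

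miR-29c-3p (hsa-miR-29c-3p, MIMAT0000681), the product of MIR29C, was dim. Its raw foreground was 249, 267 and 286 units after cisplatin, against 243, 236 and 260 in control. It was above the blank-spot limit on 3 of 3 cisplatin and 2 of 3 control arrays, the exception being control replicate 2, where it lay at 0.984 times the limit. The highest of the 6 spots was at 1.26 times its limit, so the values lie close to the background throughout.

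Normalized values of miR-29c-3p were 7.38, 7.21 and 7.32 after cisplatin and 7.21, 6.85 and 7.21 in control. Cisplatin replicate 2 was level with control replicates 1 and 3, and control replicate 2 was the low array. The means were 7.30 ± 0.087 and 7.09 ± 0.21 (SD, n = 3 each), a log2 difference of 0.21 (SE 0.12, 95% interval -0.086 to 0.51, limma adjusted p = 0.49), with rank 37 by signed difference. This probe entered the test only through the cisplatin group, where all 3 arrays were above the limit, so the detection filter favoured a positive value, and its rank and sign are given as a description.

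**Figure D1:**
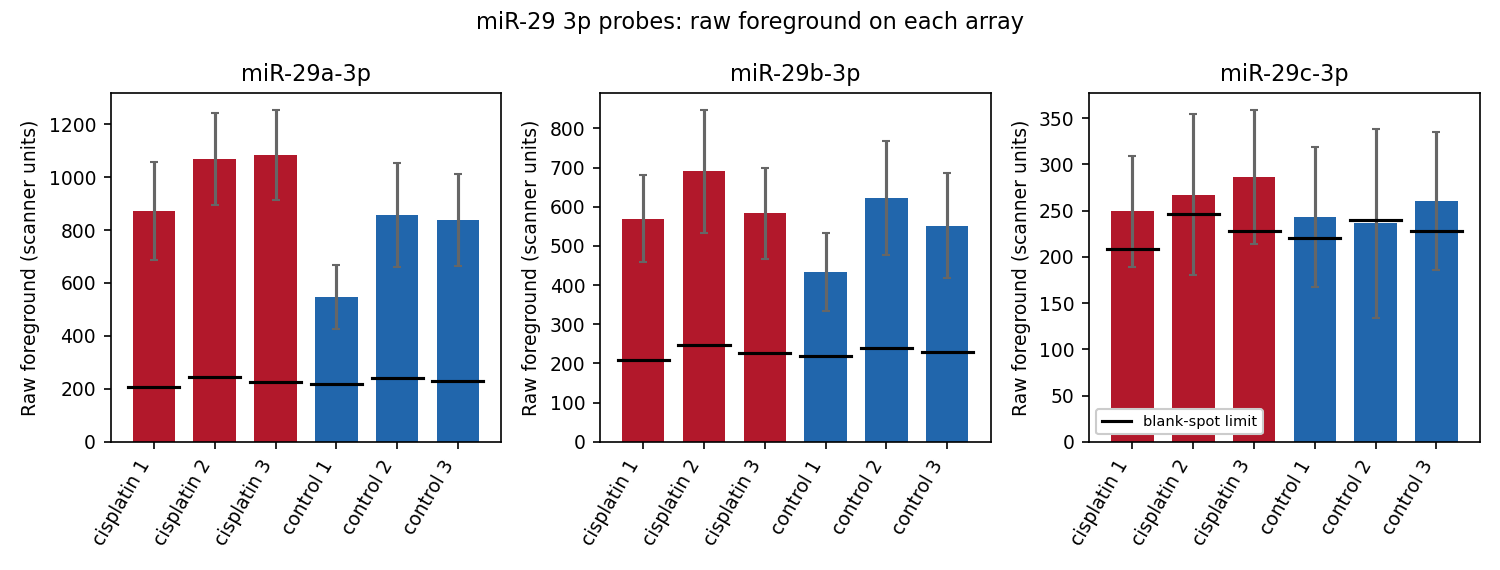
Raw foreground of the 3p probes on each array (y axis, scanner units, each panel with its own range), with the 3 cisplatin arrays in red and the 3 control arrays in blue. Bars are the pixel median of the spot, whiskers the pixel SD and black lines the blank-spot limit of the array, and a reader should see miR-29a-3p at 873 to 1083 units after cisplatin against 546 to 857 in control, and miR-29c-3p close to the limit in both groups.

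Read together, 0 of the 3 tested members passed the threshold of 0.05 on the limma adjusted p, where 0.309% of the 324 tested probes did. When the fit held the replicate number as a block the count over all tested probes was 0 (57 at an unadjusted p under 0.05), and the adjusted p was 0.308 for miR-29a-3p, 0.66 for miR-29b-3p and 0.281 for miR-29c-3p. At an unadjusted p under 0.05, without a block, the members counted 0 of 3 and the tested probes 15.7%. The unadjusted limma p of miR-29c-3p was 0.129 without a block, 0.0492 with the replicate block and 0.0317 with the pair of slide positions as a block. That count of members thus became 1 of 3 with either block, where 57 and 46 of the 324 tested probes were under 0.05. The member counted is miR-29c-3p, which was tested only through the cisplatin group, so nothing is read from it. The unadjusted limma p was also under 0.05 for miR-29a-3p without normalization (0.0458), with median scaling (0.0223) and with 75th percentile scaling (0.0166). In these settings, in this order, 33, 39 and 48 of the 324 tested probes were under 0.05. With 75th percentile scaling it was under 0.05 for miR-29c-3p too (0.0462), from which again nothing is read. No member had an adjusted p under 0.05 in these settings. The median log2 difference of the members was 0.21, against -0.012 over all tested probes, and 3 of 3 members were positive, against 47.8% of tested probes. The median of the 3 is the value of miR-29c-3p, which the filter favoured, so nothing is read from this median or count. miR-29a-3p and miR-29b-3p were detected on all 6 arrays.

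Raw foreground was higher in the cisplatin array in 9 of 9 comparisons of a 3p member within a same-numbered pair, while blanks and local background were lower there. Among tested probes 26.2% were higher in all 3 pairs. On the normalized scale miR-29a-3p and miR-29c-3p were higher in 3 of 3 pairs and miR-29b-3p in 2 of 3, where 19.1% of tested probes were higher in all 3. The 3 members share arrays and 2 of the 3 share bases with each other almost throughout, so these comparisons are not independent of each other, and for miR-29c-3p, which was tested only through the cisplatin group, they support nothing. Groups did not overlap for 1 of 3 members on the raw scale (miR-29a-3p), against 9.57% of tested probes that were higher after cisplatin without overlap. They did not overlap for 0 of 3 on the normalized scale, against 8.64%.

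**Figure D2:**
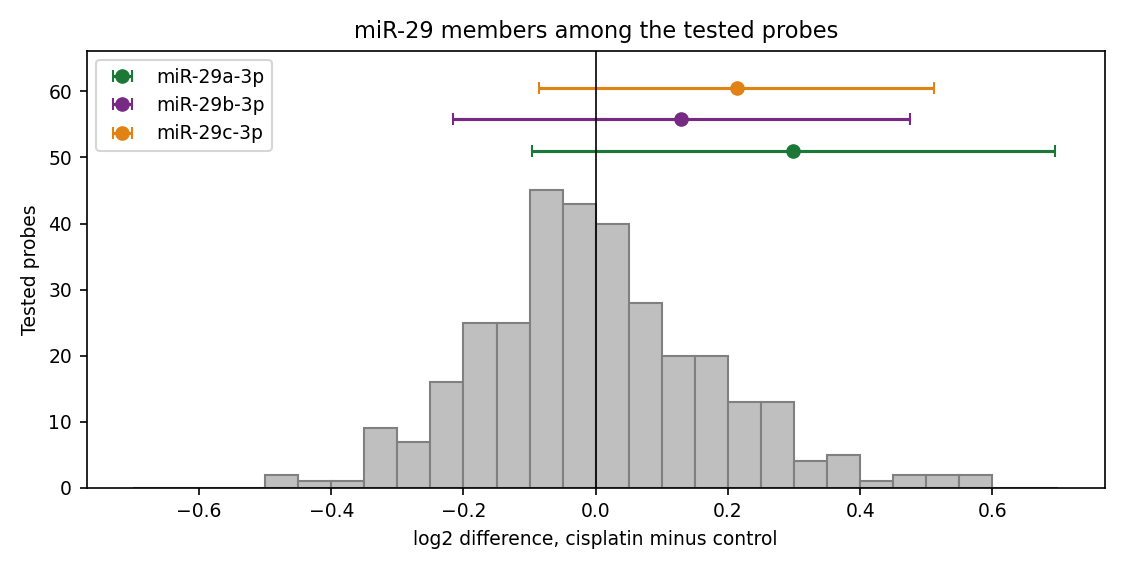
Histogram of the log2 difference, cisplatin minus control, of the 324 tested probes (y axis, number of probes), with the 3 members drawn above it as points with 95% intervals. The members lie on the positive side at 0.30, 0.13 and 0.21 for miR-29a-3p, miR-29b-3p and miR-29c-3p, and each interval crosses 0.

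The size of the differences rested on single arrays and on the processing. Without control replicate 1 the log2 difference was 0.14 for miR-29a-3p, 0.013 for miR-29b-3p and 0.29 for miR-29c-3p, and without control replicate 2 it was 0.42, 0.23 and 0.090 for the 3 members in this order. For miR-29b-3p it was 0.085 without cisplatin replicate 1, 0.084 without cisplatin replicate 2 and 0.21 without cisplatin replicate 3. All 3 values were positive in every alternative that gave one, 21 for miR-29a-3p, 21 for miR-29b-3p and 20 for miR-29c-3p, though the blocks, the filters and the moderation cannot change a value's sign, and none passed in any.

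**Figure D3:**
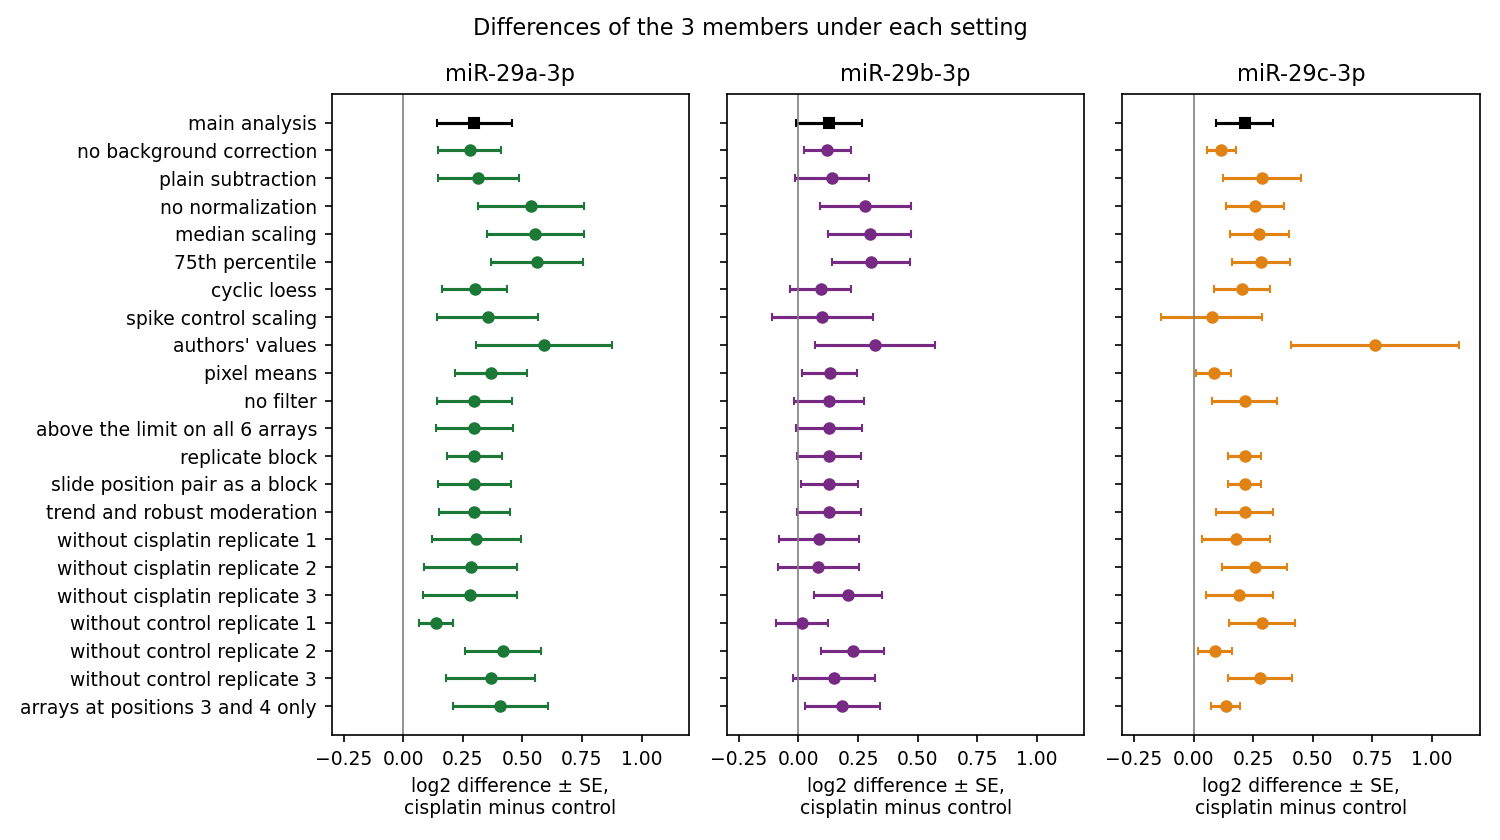
Log2 difference, cisplatin minus control, of each 3p member (x axis, points with SE) under the main analysis (black squares) and each alternative setting down the page. All points lie above 0, from 0.14 to 0.59 for miR-29a-3p, from 0.013 to 0.32 for miR-29b-3p and from 0.076 to 0.76 for miR-29c-3p.

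The values also varied with the scaling between arrays. Without normalization the log2 difference of miR-29a-3p was 0.54, and shifting arrays to a common median or 75th percentile gave 0.55 and 0.56. For miR-29b-3p these values were 0.28, 0.30 and 0.31, and for miR-29c-3p they were 0.26, 0.28 and 0.28. In these settings the median of all tested probes was 0.071, 0.088 and 0.095. With it taken off, each setting gave 0.47 for miR-29a-3p, 0.21 for miR-29b-3p and 0.19 for miR-29c-3p. In the main analysis these were 0.31, 0.14 and 0.22. The median of all tested probes was 0.14 with the authors' values and -0.11 with scaling to spike spots, against -0.012 in the main analysis. Less that median, miR-29a-3p stood at 0.45 and 0.47, miR-29b-3p at 0.18 and 0.21, and miR-29c-3p at 0.62 and 0.19.

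The dim member depended on how a spot was read. For miR-29c-3p the log2 difference was 0.12 without background correction and 0.083 when pixel means replaced pixel medians. In the authors' processed table, which lists linear intensities for probes above a foreground value of each array, miR-29c-3p had 61.0, 56.9 and 83.1 after cisplatin, against 47.1, 21.7 and 58.3 in control, a log2 difference of 0.76 (SE 0.35, limma adjusted p = 0.532). Again control replicate 2 was the low array, and cisplatin replicate 2 lay below control replicate 3. The same table gave miR-29a-3p 645, 856 and 897 after cisplatin and 351, 599 and 689 in control, and it gave miR-29b-3p 361, 479 and 387 after cisplatin and 239, 382 and 376 in control, so the groups overlapped for all 3 members there.

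The cell number in the scanner files, read here as slide position, divides the arrays, with replicate 2 of each group at positions 2 and 1 and the other arrays at 4 and 3. Position and group cannot be told apart within a pair of positions. Within positions 2 and 1, miR-29a-3p differed by 0.11, miR-29b-3p by 0.014 and miR-29c-3p by 0.36 on the log2 scale, with 1 array each and no test. Within positions 4 and 3 the differences were 0.39 (SE 0.20), 0.19 (SE 0.16) and 0.14 (SE 0.062), with limma adjusted p-values of 0.522, 0.734 and 0.502.

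Whether the members changed unequally was asked from the difference between a pair of them within each array, which says nothing of their relative levels. The gap of miR-29a-3p over miR-29b-3p was 0.78 ± 0.19 log2 units after cisplatin and 0.61 ± 0.096 in control (SD, n = 3 each), a change of 0.17 (exact two-sided permutation p = 0.3, adjusted over 3 pairs 0.9). The gap of miR-29a-3p over miR-29c-3p changed by 0.086 (exact permutation p = 0.8, adjusted 0.9), with SDs of 0.14 after cisplatin and 0.47 in control. The gap of miR-29b-3p over miR-29c-3p changed by -0.084 (exact permutation p = 0.9, adjusted 0.9), with SDs of 0.19 and 0.41. With 3 arrays against 3 the smallest p possible is 0.1, so this design could not have reached 0.05. miR-29c-3p was tested only through the cisplatin group, so the filter favoured a direction for the gaps that hold it. Nothing is read from the changes of those gaps.

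The 5p arms, the opposite strands of the hairpins, were not tested, since 0 of 4 were detected on all arrays of a group. They stood above the blank-spot limit on 1 of 12 spots after cisplatin and on 4 of 12 in control. Relative to the limit of their array they ranged from 0.698 to 1.02 after cisplatin and from 0.838 to 1.03 in control. In 11 of 12 same-numbered comparisons the cisplatin spot had the lower raw foreground, in the same direction as the blank spots.

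miR-29a-5p (MIMAT0004503) had 193, 221 and 207 units after cisplatin and 200, 201 and 224 in control, all below the limit. miR-29c-5p (MIMAT0004673) had 193, 230 and 211 units after cisplatin and 215, 240 and 222 in control, and it passed the limit only on control replicate 2, where it lay at 1.00 times the limit. The values of miR-29a-5p overlap between the groups, as do those of miR-29c-5p.

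The passenger arms of the miR-29b hairpins can be told apart by sequence, unlike their 3p arms. miR-29b-1-5p (MIMAT0004514), from chr7, had 198, 209 and 227 units after cisplatin and 215, 224 and 236 in control, with 1 of 6 arrays above the limit, control replicate 3. miR-29b-2-5p (MIMAT0004515), from chr1, had 190, 172 and 231 units after cisplatin and 227, 214 and 235 in control, with 3 of 6 above it, cisplatin replicate 3 and control replicates 1 and 3. At this signal no difference was detectable for either arm, and which locus supplied miR-29b-3p could not be read from them.

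**Figure D4:**
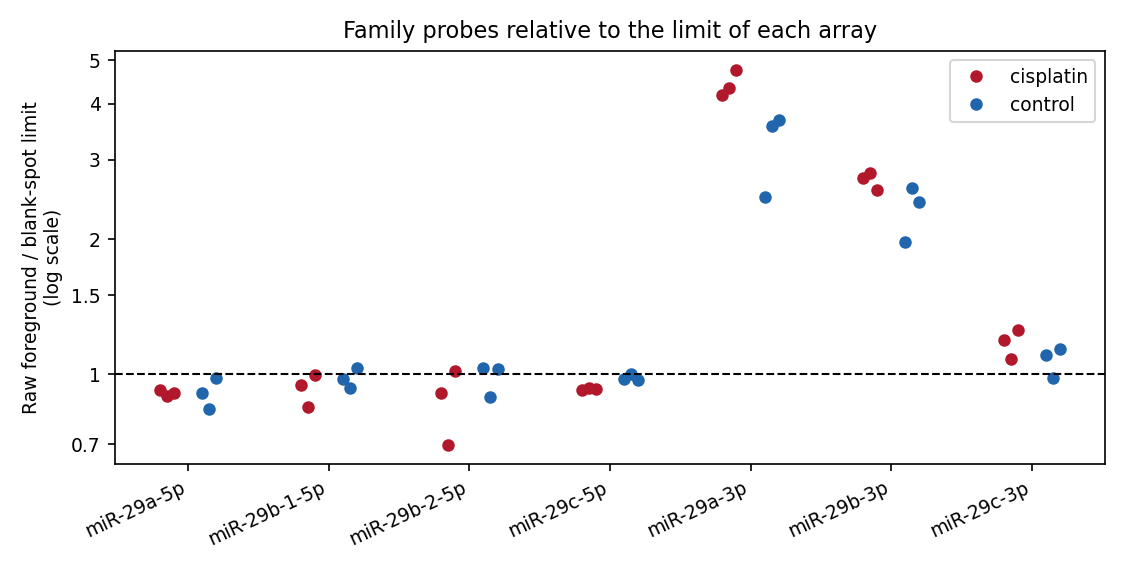
Raw foreground of each of the 7 family probes divided by the blank-spot limit of its array (y axis, log scale), with cisplatin arrays in red to the left of control arrays in blue and the limit as a dashed line. The 5p arms lie between 0.698 and 1.03, miR-29c-3p from just under the limit to 1.26, and miR-29a-3p reaches 4.76.

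Across the 6 arrays the members followed each other only in part. Over normalized values miR-29a-3p and miR-29b-3p had a Pearson correlation of 0.77, which was 0.016 over the 5 arrays left without control replicate 1. miR-29a-3p and miR-29c-3p had 0.018, and miR-29b-3p and miR-29c-3p -0.22. Over the same 5 arrays these were 0.18 and -0.32. The points share arrays and 1 normalization, and these values are descriptions. The mean profile of the 3, each centred on its own mean, stood at 0.14, 0.12 and 0.068 in cisplatin replicates 1, 2 and 3, against -0.26, -0.046 and -0.013 in control replicates 1, 2 and 3. No single member split the groups on this scale. The mean also holds miR-29c-3p, tested only through the cisplatin group, so nothing is read from the split of the mean by group. The members, each a part of this mean, had Pearson correlations with it of 0.91 (miR-29a-3p), 0.78 (miR-29b-3p) and 0.34 (miR-29c-3p). miR-29c-3p thus followed it least.

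Among the tested probes outside the family, the most similar to that profile over the 6 arrays were miR-23a-3p (Pearson correlation 0.99), miR-24-3p (0.97), miR-181a-2-3p (0.97), miR-26b-5p (0.94) and miR-27a-3p (0.94). Over the 5 arrays without control replicate 1 these correlations were 0.99, 0.94, 0.87, 0.71 and 0.84. All 5 were lowest on control replicate 1, between -0.59 and -0.40 log2 units from their own mean. Their log2 differences were 0.55 (SE 0.13) for miR-23a-3p, 0.39 (SE 0.11) for miR-24-3p, 0.28 (SE 0.13) for miR-181a-2-3p, 0.26 (SE 0.15) for miR-26b-5p and 0.60 (SE 0.14) for miR-27a-3p, with limma adjusted p-values of 0.129 to 0.505, so none passed. The profiles running most against the family were miR-378a-3p (-0.98), miR-93-5p (-0.96) and miR-6125 (-0.93), with log2 differences of -0.16, -0.14 and -0.15. The probes named here were picked from the tested probes by this correlation, so its size is a description and supports nothing. Probes with identical values on all arrays have no correlation and were left out of this ranking.

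**Figure D5:**
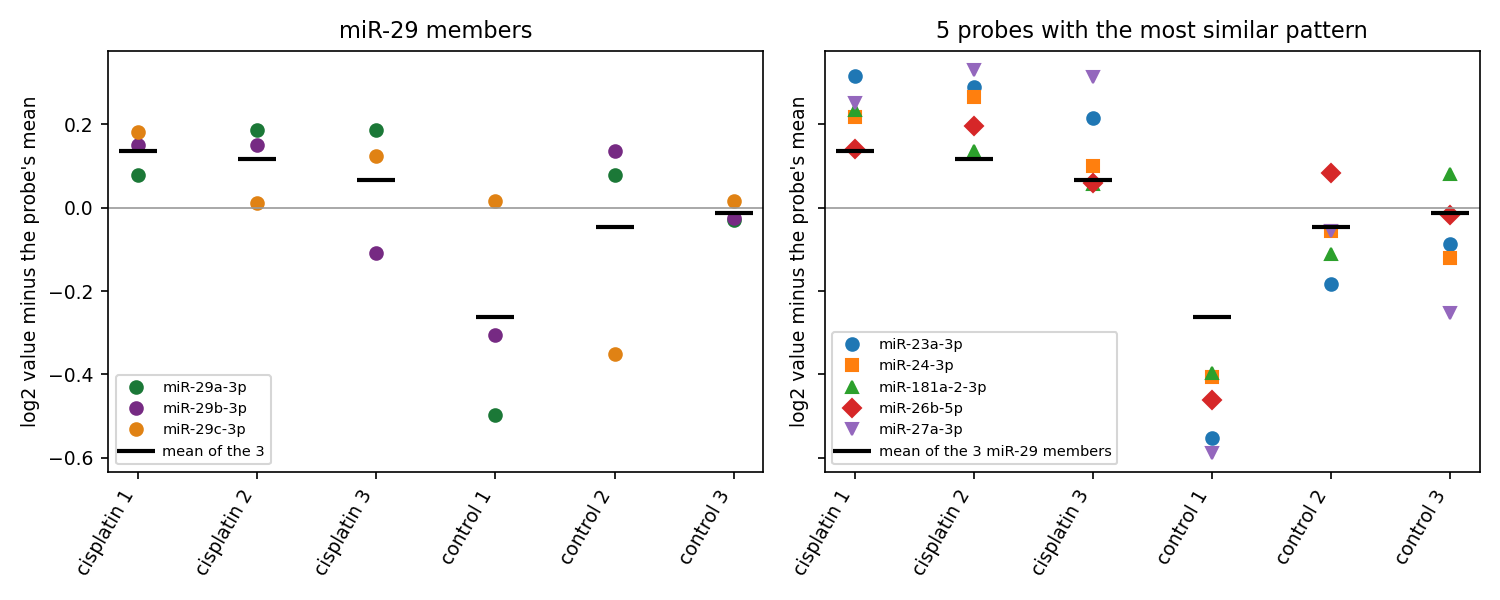
Normalized log2 value minus the probe's own mean (y axis) on each array, for the 3 members (left) and for the 5 probes with the most similar pattern (right), with the mean of the 3 members as black bars in both panels. The bars lie at 0.068 to 0.14 on cisplatin arrays and at -0.26 to -0.013 on control arrays, and miR-29a-3p and all 5 similar probes are lowest on control replicate 1. The bars hold miR-29c-3p, tested only through the cisplatin group, so nothing is read from their split by group.

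Other microRNAs with the same kinds of target were read beside the family. Of 10 microRNAs known to target MCL1, 6 were tested, 0 passed in either direction, 5 were positive, and their median log2 difference was 0.047. The brightest were miR-26a-5p (0.057, SE 0.079), miR-26b-5p, miR-125b-5p (0.0071, SE 0.074) and miR-193b-3p (0.18, SE 0.14). Of 7 microRNAs studied as regulators of DNA methyltransferases, 7 were tested, 0 passed, 4 were positive, and the median was 0.037. miR-148a-3p stood at -0.19 (SE 0.18), miR-185-5p at 0.13 (SE 0.11), miR-148b-3p at -0.046 (SE 0.21) and miR-143-3p at 0.17 (SE 0.12).

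MicroRNAs described in fibrosis were set out by their reported direction. Of 14 anti-fibrotic ones 10 were tested, 0 passed, 6 were positive, and the median log2 difference was 0.033. miR-122-5p, the most abundant microRNA of liver, stood at -0.21 (SE 0.050), miR-19b-3p at -0.40 (SE 0.054), miR-30b-5p at 0.24 (SE 0.059) and miR-30c-5p at -2.3e-05 (SE 0.10). Of 11 pro-fibrotic ones 8 were tested, 0 passed, 6 were positive, and the median was 0.15. miR-21-5p stood at 0.38 (SE 0.094), miR-192-5p at -0.058 (SE 0.069), miR-221-3p at 0.22 (SE 0.056) and miR-222-3p at 0.13 (SE 0.088). The limma adjusted p-values of these 8 named fibrosis microRNAs lay between 0.0706 and 1. The lists share members (miR-101-3p is in 3 of them), and the median of all tested probes was -0.012. Of all tested probes 47.8% were positive and 0.309% passed in either direction. Tested through the cisplatin group only were miR-200b-3p and miR-342-3p, and through the control group only miR-101-3p and miR-214-3p. The filter favoured a direction for these, so nothing is read from the list counts and medians.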

How the data were processed

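Scanner files of 6 arrays were used. Hy5 was the dye on the total RNA, per the labels, and per the file headers the deposited intensity values are the pixel median, mean and SD of each spot and the median and mean of its local background. For the scanner and its software the sources used here give no name. The authors also deposited a processed table, which lists linear intensity with a median of 31 on every array and leaves out 1031 to 1321 of 2019 human probes per array. No source describes how it was made. On each array its values are a straight line of the foreground median (largest residual 5.4e-06) that crosses 0 at 183.9 to 212.7 units, and it lists every human probe above 1 foreground value and none below it. Its scale is thus linear, uncentred and in the direction of the scanner values, and it served only as an alternative.

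Foreground and background medians of all 3200 spots, all with flag 0, went through normexp with an offset of 50 and log2, and the 2019 human probes were then brought to common quantiles across arrays (limma 3.58.1, R 4.3.3). The offset shrinks differences of dim probes. Quantile normalization acted on a bright member too. The log2 difference of miR-29a-3p was 0.30 with it and 0.54 without normalization, and that of miR-29c-3p was 0.21 and 0.26. Less the median of all tested probes these were 0.31 and 0.47 for miR-29a-3p, and 0.22 and 0.19 for miR-29c-3p. The 324 tested probes (detected throughout the cisplatin or the control group) were fitted with lmFit and eBayes, which had 4 residual and 1.52 prior degrees of freedom, with Benjamini-Hochberg adjustment over all of them. The limma fit was tested on simulated log2 values. The background correction, the quantile normalization, the detection filter and the permutation test were not part of that simulation. Member pairs were compared with an exact permutation test. The number of arrays limits the precision. Figures used matplotlib 3.10.9.

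Deviations from the group means correlated between same-numbered samples (0.44, 0.24 and 0.20 over the tested probes for numbers 1, 2 and 3), so same-numbered samples were treated as pairs in the blocked fit. A correlation of 0.23 was also seen for cisplatin 2 with control 3, which carry different numbers, so this check alone does not single out the pairs numbered 2 and 3. No label states the pairing, which rests on the shared numbers and these correlations.

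The members, the lists, the tests and the alternatives were chosen with earlier results of these data known. Named are all family probes, probes sharing 6 seed letters, the 5 most and 3 least similar profiles, and up to 4 tested probes of each list by mean signal. The analysis of arrays at positions 3 and 4 only, and the alternatives for the member pairs, were chosen after seeing the data.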

Additional observations from a re-analysis of the deposited data

How the results depend on the processing

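The 3 member differences stayed positive and did not pass in any alternative, and the replicate block changed no member's call at an adjusted p under 0.05. The unadjusted limma p of miR-29c-3p was 0.0492 with that block and 0.129 without it. miR-29c-3p had no value when detection on all 6 arrays was required. The number of tested probes past the threshold was 1 in the main analysis. Cyclic loess gave 4, 75th percentile scaling 3 and median scaling 2, each of them higher after cisplatin, and leaving out the background correction gave 3 (1 higher, 2 lower). It was 0 without normalization, with spike control scaling, with the authors' values, with pixel means, without a filter, with detection on all 6 arrays, with trend and robust moderation, with the replicate block and at positions 3 and 4 only. In these limma fits 33, 13, 26, 39, 97, 39, 38, 57 and 38 probes had an unadjusted p under 0.05. Leaving out 1 array gave 0 to 3 probes, with 3 without cisplatin replicate 2 and 0 without each of the others (42 to 57 at an unadjusted p under 0.05).

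The change of miR-29a-3p relative to miR-29c-3p turned to -0.17 with the authors' values and lay between -0.15 (without control replicate 1) and 0.33 over the fits without 1 array. That of miR-29b-3p relative to miR-29c-3p turned to 0.0053 without background correction, to 0.023 without normalization and with median, 75th percentile and spike scaling, to 0.048 with pixel means and to 0.050 at positions 3 and 4 only, and lay between -0.27 and 0.14 over the fits without 1 array. The cause of these turns was not tested. The miR-29c-3p spots lie at 0.984 to 1.26 times the limit, and this signal over background limits what can be read from them. This probe was also tested only through the cisplatin group, so nothing is read from the turns.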
